A study of Mus musculus with 29 samples.

Results

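Apoe, Fgl2, Sned1 and Htra3 are 4 of the 55357 genes counted in primary mouse cardiac fibroblasts, and were chosen by their lower level on matrix of aged heart in earlier results of these counts. All 4 passed the filter on low counts, among 11786 genes tested in fresh cells, 12841 in cultured cells and 13523 over both. The name "lowered by old matrix" held for some substrate pairs only. On aged matrix all 4 genes were lower in young cells on a soft gel and in aged cells on a stiff gel. In young cells on a stiff gel Apoe, Fgl2 and Sned1 overlapped between the matrices and Htra3 was higher on the aged one.

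RNA was counted in 29 libraries of 10 groups. Fresh cells of young and of aged mice (labelled YCF and ACF) gave 3 libraries each. The other 23 came from young or aged cells after 48 h on DECIPHER substrates, in which heart extracellular matrix is held in a hydrogel. Each substrate name joins a gel (Soft or Stiff) with Y or A. The labels give only these letters, and reading them as matrix of young or aged heart follows the series title and what is known of the study. The groups have 3 libraries, except young cells on SoftY with 2. All are primary cells. The labels call the libraries biological replicates without tying them to animals, so a p-value reflects only how these libraries vary, which may be technical. They give no age, sex, strain or gel stiffness. Library names carry 1 letter for fresh cells and another for each substrate, and what it stands for is not given. If it marks handling, that cannot be told apart from culture, matrix or stiffness. All 12 markers of cardiac fibroblasts had counts in every group.

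Apoe encodes apolipoprotein E, a secreted lipid carrier that binds lipoprotein receptors on cells and is made by many cell types, macrophages among them. Fgl2 encodes fibrinogen-like protein 2, which has a fibrinogen-like domain and is known both as a membrane-bound prothrombinase and as a secreted regulator of immune cells. Sned1 encodes an extracellular matrix glycoprotein with EGF-like and fibronectin type III domains. Htra3 encodes a secreted serine protease of the HtrA family, whose members can bind or cleave matrix proteins and lower signalling by TGF-beta family ligands. Fibroblasts secrete the proteins of the heart's matrix and also respond to the matrix and stiffness around them.

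On mm39, the build of the files, Apoe (ENSMUSG00000002985) lies on chromosome 7 from 19430034 to 19433114. Fgl2 (ENSMUSG00000039899) lies on chromosome 5 from 21577640 to 21583373, and Htra3 (ENSMUSG00000029096) on the same chromosome from 35809367 to 35837127. Sned1 (ENSMUSG00000047793) lies on chromosome 1 from 93163563 to 93228788. All 4 are protein-coding, and no other row of the table has these symbols.

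The sequences before the start sites are shown because the 4 genes were high on the same substrate in young cells. They are RefSeq's promoter windows of GRCm38.p6, an older build than that of the counts, written 5′ to 3′ on the gene's strand. Each begins 250 bases before the RefSeq start site and ends before the first annotated transcript start within that distance. This left out 31 bases for Fgl2, 101 for Sned1 and 33 for Htra3. Apoe has 3 windows in RefSeq's table, and the one at the outermost GENCODE M21 start is shown. RefSeq's span of the gene begins further upstream, so this window may lie inside the gene as RefSeq has it. Capitals mark the matches of the motifs named after them.
Apoe, chr7:19699189-19699438, minus strand: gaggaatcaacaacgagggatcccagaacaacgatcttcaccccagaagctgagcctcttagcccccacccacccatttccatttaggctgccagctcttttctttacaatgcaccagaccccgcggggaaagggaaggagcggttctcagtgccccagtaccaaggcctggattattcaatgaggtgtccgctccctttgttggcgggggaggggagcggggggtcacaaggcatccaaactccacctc
Fgl2, chr5:21372423-21372641, plus strand: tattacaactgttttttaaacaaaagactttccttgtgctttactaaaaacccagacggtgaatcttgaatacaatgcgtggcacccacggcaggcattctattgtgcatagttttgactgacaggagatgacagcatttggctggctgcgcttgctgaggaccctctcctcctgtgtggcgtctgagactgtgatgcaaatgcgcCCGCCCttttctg
Sned1, chr1:93235647-93235795, plus strand: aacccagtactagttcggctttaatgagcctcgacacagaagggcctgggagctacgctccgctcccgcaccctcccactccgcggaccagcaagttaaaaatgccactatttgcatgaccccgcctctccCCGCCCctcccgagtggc
Htra3, chr5:35679814-35680030, minus strand: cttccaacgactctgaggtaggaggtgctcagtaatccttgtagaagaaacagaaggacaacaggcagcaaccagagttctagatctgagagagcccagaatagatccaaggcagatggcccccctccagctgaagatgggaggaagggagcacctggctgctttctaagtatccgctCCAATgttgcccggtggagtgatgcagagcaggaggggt

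8 motifs were searched on both strands: TGANTCA for AP-1, TATAAA for the TATA box, CCAAT for the CCAAT box, GGGCGG for the GC box, CACGTG for the E-box, GGAATG for TEAD factors, AGGTCA for nuclear receptors, and the core of the interferon response element. A GC box match began 44 bases before the start site of Fgl2 and 119 before that of Sned1. It occurs in 28.3% and 16.6% of 32851 promoter windows cut to those lengths. A CCAAT match began 72 bases before the start site of Htra3, which 30.6% of windows of that length hold. The other 6 motifs had no match in these windows, no 2 matches overlapped, and the Apoe window held none of the 8. These letters are a description of the windows and not of binding.

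Apoe was highest in young cells on SoftY, at 2666 and 2681 CPM (counts relative to the library total, scaled for library composition). The libraries held 1028, 1002 and 1191 CPM on SoftA, 871, 844 and 849 on StiffY, and 867, 851 and 933 on StiffA. Both SoftY libraries thus lay above every other young library, while the stiff substrates overlapped. In aged cells Apoe was 1406, 1489 and 1575 CPM on SoftY and 1460, 1754 and 1478 on StiffY. It was 720, 781 and 885 CPM on SoftA and 513, 452 and 407 on StiffA. Here both young matrices were above both aged matrices. In the order of the 8 groups, aged cells on StiffY and SoftY overlapped, as did young cells on StiffA with StiffY and the latter with aged cells on SoftA.

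Fgl2 was likewise highest in young cells on SoftY, with 733 and 686 CPM. It was 282, 305 and 307 CPM on SoftA, 208, 226 and 237 on StiffY and 237, 228 and 219 on StiffA. In aged cells the libraries held 162, 195 and 197 CPM on SoftY and 186, 251 and 207 on StiffY. They held 82.5, 85.9 and 79.2 CPM on SoftA and 48.8, 47.7 and 43.1 on StiffA, the lowest of the cultured groups. Young cells on StiffA and StiffY and aged cells on StiffY and SoftY formed a middle range in which each group overlapped the next.

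Sned1 reached 146 and 134 CPM in young cells on SoftY. It was 44.7, 44.3 and 30.8 CPM on SoftA, 43.2, 40.8 and 46.6 on StiffY and 41.2, 34.5 and 25.4 on StiffA. These last 3 groups overlapped one another. In aged cells it was 84.9, 76.1 and 103.8 CPM on SoftY, 62.4, 73.7 and 101.4 on StiffY, 29.3, 27.0 and 34.2 on SoftA and 17.7, 8.61 and 26.5 on StiffA. The aged cells thus split by matrix with no overlap.

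Young cells held 120.1 and 128.6 CPM of Htra3 on SoftY, 61.7, 71.0 and 76.2 on SoftA, 42.0, 33.3 and 43.3 on StiffY and 65.7, 74.8 and 52.1 on StiffA. Aged cells held 71.6, 81.6 and 94.2 CPM on SoftY, 77.7, 79.0 and 74.3 on SoftA, 101.1, 121.8 and 93.7 on StiffY and 39.4, 43.1 and 35.1 on StiffA. The lowest groups were young cells on StiffY and aged cells on StiffA, which overlapped. From the highest group to the sixth every neighbour overlapped the next.

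**Figure D1:**
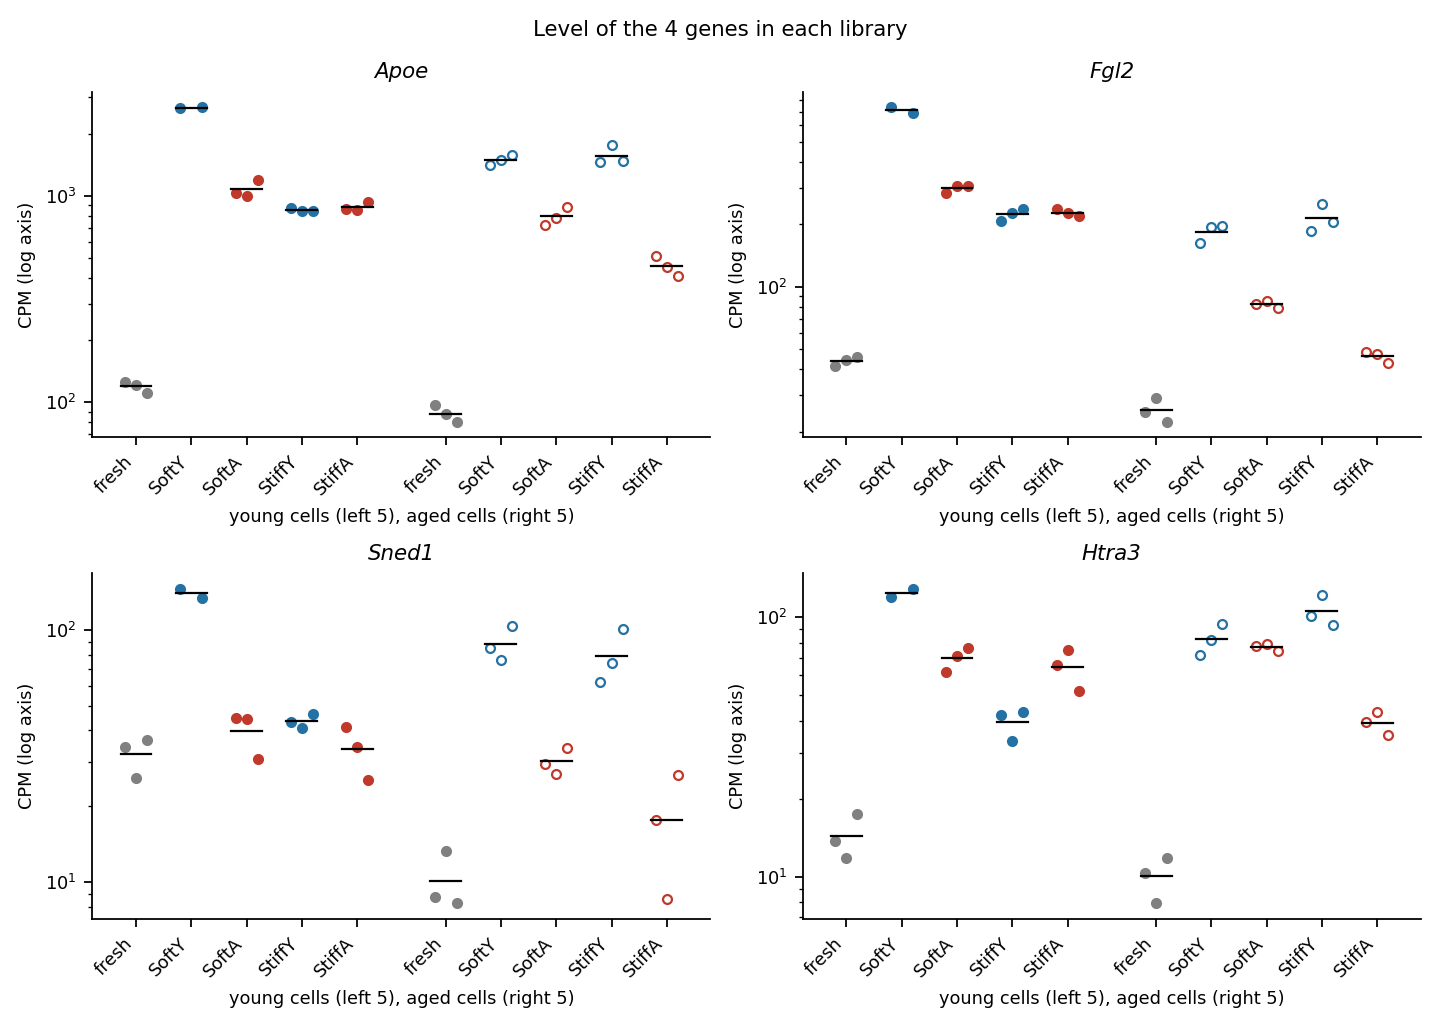
CPM of each gene (log axis) in each library, with young cells on the left and aged cells on the right of each panel. Points are libraries (grey fresh, blue young matrix, red aged matrix, filled young cells, open aged cells) and bars are group means. Young cells on SoftY are highest for Apoe at 2673 CPM and for Fgl2 at 709 CPM on average.

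The matrix pairs chose the genes, so their differences are described without a test. Any call of the 4 genes for a matrix difference follows from that choice, and nothing is read from it. The values are log2 fold changes of aged over young matrix ± SE of the fit. In young cells on the soft gel these were -1.32 ± 0.10 for Apoe, -1.25 ± 0.11 for Fgl2, -1.79 ± 0.25 for Sned1 and -0.83 ± 0.16 for Htra3. All 4 met the call for lower, an adjusted p under 0.05, which 1.24% of genes did. On the stiff gel the young cells gave 0.04 ± 0.09 for Apoe, 0.02 ± 0.10 for Fgl2, -0.36 ± 0.24 for Sned1 and 0.71 ± 0.16 for Htra3. There 1 of 4 met the call for higher (background 0.249%) and 0 of 4 that for lower (background 0.101%).

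In aged cells Apoe, Fgl2 and Sned1 were lower on aged matrix on both gels, and Htra3 on the stiff gel only. On the soft gel the log2 fold changes were -0.90 ± 0.09 for Apoe, -1.16 ± 0.11 for Fgl2, -1.54 ± 0.23 for Sned1 and -0.09 ± 0.14 for Htra3. The first 3 met the call for lower, which 0.709% of genes did. On the stiff gel they were -1.76 ± 0.10, -2.19 ± 0.11, -2.20 ± 0.25 and -1.41 ± 0.15, and all 4 met the call (background 1.23%). Sned1 libraries on StiffA thus averaged 17.6 CPM against 79.2 on StiffY.

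Averaged over both gels, the fold change in young cells was -0.64 ± 0.07 for Apoe, -0.61 ± 0.08 for Fgl2, -1.08 ± 0.17 for Sned1 and -0.06 ± 0.11 for Htra3. 3 of 4 met the call for lower, against 0.825% of genes, and 1.67% of genes met that for higher. In aged cells the averages were -1.33 ± 0.07, -1.67 ± 0.08, -1.87 ± 0.17 and -0.75 ± 0.10, and 4 of 4 met the call (background 3.30% lower, 4.14% higher). Since these counts follow from how the genes were chosen, nothing is read from them.

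**Figure D2:**
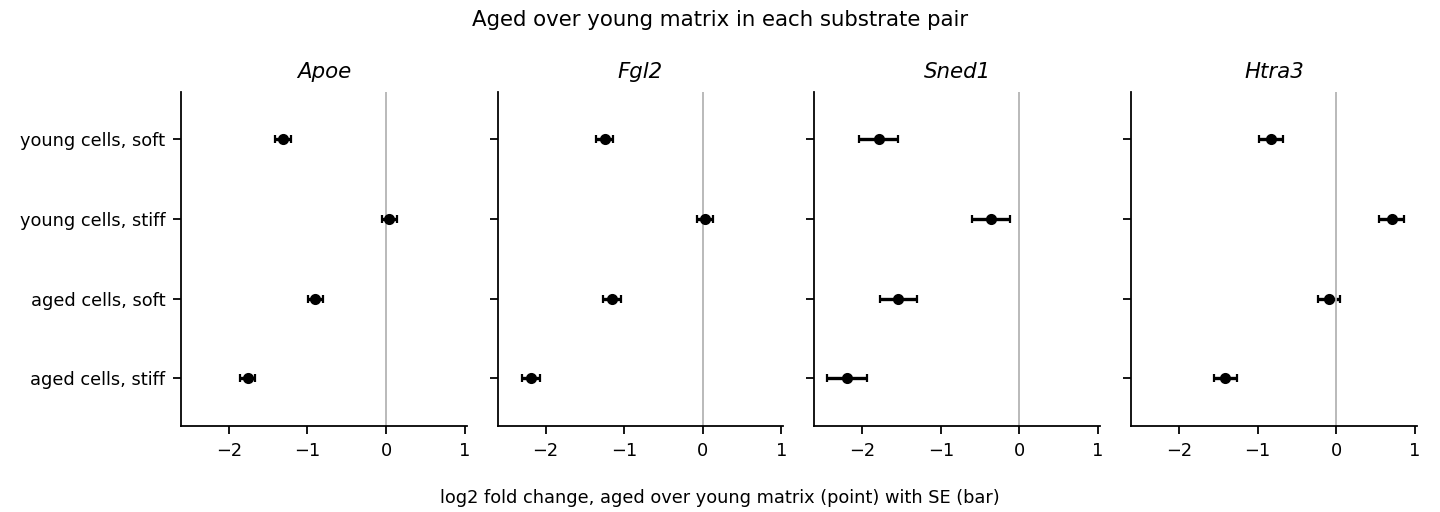
Log2 fold change of aged over young matrix (x axis; points, with bars for SE) in each cell age and gel (y axis), 1 panel a gene. Young cells on the stiff gel lie near 0 for Apoe (0.04) and above it for Htra3 (0.71), and aged cells on the stiff gel are furthest below 0.

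Stiffness was compared as the mean of both matrices. Every cultured group also enters the matrix pairs that chose the genes, so these values are described without a test and nothing is read from their counts. In young cells the log2 fold change of stiff over soft gel was -0.96 ± 0.07 for Apoe, -1.03 ± 0.08 for Fgl2, -0.98 ± 0.17 for Sned1 and -0.89 ± 0.11 for Htra3. All 4 met the call for lower (background 1.90% lower, 1.66% higher). On young matrix the log2 fold changes were -1.64, -1.67, -1.69 and -1.66 in the same order. On aged matrix they were -0.28, -0.39, -0.26 and -0.13, and there Apoe and Fgl2 were lower on the stiff gel with no overlap. The share of all genes without overlap there was not computed.

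In aged cells Apoe was at -0.36 ± 0.07, Fgl2 at -0.30 ± 0.08, Sned1 at -0.49 ± 0.17 and Htra3 at -0.30 ± 0.10. Apoe alone met the call for lower (background 0.288% lower, 0.00779% higher), joined by Fgl2 (-0.36) without the second library of aged cells on StiffY. On young matrix the values were 0.07, 0.21, -0.16 and 0.35 for Apoe, Fgl2, Sned1 and Htra3, and on aged matrix -0.79, -0.82, -0.81 and -0.96. The difference between the matrices was not tested.

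The log2 fold change for stiffness in aged cells minus that in young cells, from the same libraries and likewise a description, was 0.60 ± 0.10 for Apoe, 0.73 ± 0.11 for Fgl2, 0.59 ± 0.15 for Htra3 and 0.49 ± 0.25 for Sned1. Apoe and Fgl2 met the call (background 0.319% positive, 0.467% negative), and Htra3 (0.60) did with DESeq2.

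**Figure D3:**
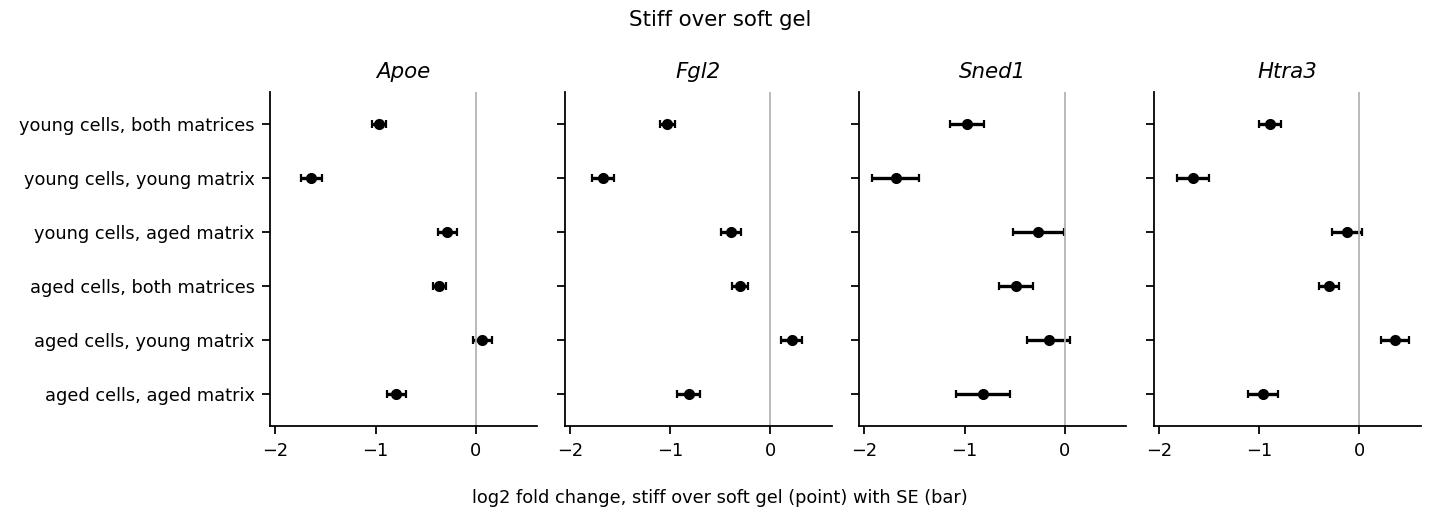
Log2 fold change of stiff over soft gel (x axis; points, with bars for SE) in young and aged cells (y axis), as the mean of both matrices and on each matrix. In young cells the genes are furthest below 0 on young matrix (Apoe -1.64), and in aged cells on aged matrix (Apoe -0.79).

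Fresh levels stand beside the cultured ones in the plot of levels by library. Apoe was 125.9, 121.3 and 111.3 CPM in young and 96.6, 87.4 and 80.7 in aged fresh cells, and Fgl2 41.6, 44.5 and 46.0 against 24.9, 29.1 and 22.4. Sned1 was 34.4, 26.0 and 36.6 CPM against 8.71, 13.3 and 8.27, and Htra3 13.8, 11.8 and 17.4 against 10.4, 7.91 and 11.8. For all 4 genes every aged library lay below every young one. The share of all genes split this way was not computed, so nothing is read from this.

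With age, 3 of 4 genes fell in fresh cells, against 16.8% of genes that fell and 15.0% that rose. The log2 fold change was -0.48 ± 0.10 for Apoe (edgeR adjusted p = 0.00227), -0.82 ± 0.15 for Fgl2 (adjusted p = 9.51e-04) and -1.70 ± 0.23 for Sned1 (adjusted p = 6.59e-05). Htra3 was at -0.52 ± 0.26 (adjusted p = 0.15). Macrophages also make Apoe, and the 16 macrophage markers summed to 241.7 to 247.7 CPM in young and 472.9 to 522.6 in aged fresh libraries, and 7 of 11 measured rose with age and 0 fell. All 18 proliferation genes also fell (median -1.57), and 7 of 12 fibroblast markers fell while 3 rose (median -0.60). The part of these in the result was not tested.

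Cell age in cultured cells was compared as the mean of the 4 substrates. The cultured libraries are also those that chose the genes. These values are thus described without a test, and nothing is read from their counts. The log2 fold change of aged over young cells was -1.54 ± 0.05 for Fgl2 and -0.35 ± 0.05 for Apoe. Sned1 was at -0.30 ± 0.12 and Htra3 at 0.06 ± 0.08. Fgl2 and Apoe met the call for lower (background 8.50% lower, 6.52% higher). Sned1 met it without the third library of aged cells on StiffA, at -0.38, and with no filter on low counts, at -0.30. Beside this, 7 of 8 endothelial markers rose with cell age and 0 fell, and 9 of 12 fibroblast markers fell and 0 rose. Their part in the result was not tested.

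These means joined substrates that went opposite ways. On StiffY aged cells were above young cells with no overlap for Apoe (0.86 ± 0.09), Sned1 (0.86 ± 0.23) and Htra3 (1.42 ± 0.15), while Fgl2 overlapped (-0.07 ± 0.10). On SoftY all 4 were lower in aged cells, by -0.85 ± 0.10, -1.95 ± 0.11, -0.67 ± 0.23 and -0.60 ± 0.15 for Apoe, Fgl2, Sned1 and Htra3. On StiffA they were at -0.95 ± 0.09, -2.28 ± 0.11, -0.97 ± 0.27 and -0.70 ± 0.15, and Sned1 overlapped. On SoftA Apoe (-0.44 ± 0.09) and Fgl2 (-1.86 ± 0.11) were lower with no overlap, and Sned1 (-0.42 ± 0.26) and Htra3 (0.14 ± 0.15) overlapped. The share of all genes without overlap on each substrate was not computed, so nothing is read from these splits.

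**Figure D4:**
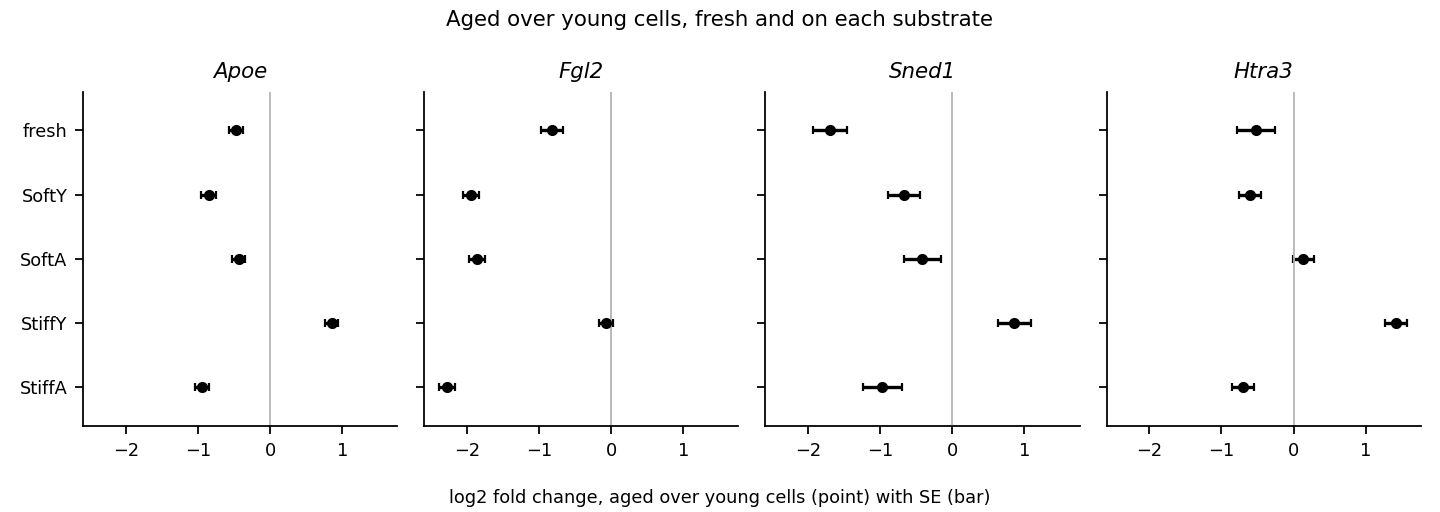
Log2 fold change of aged over young cells (x axis; points, with bars for SE), fresh and on each substrate (y axis), 1 panel a gene. On StiffY Apoe (0.86), Sned1 (0.86) and Htra3 (1.42) lie above 0, and Fgl2 lies far below 0 on SoftY, SoftA and StiffA.

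Cultured cells were compared with fresh cells as the mean of the 4 substrates. The cultured libraries also chose the genes, so these values are described without a test and nothing is read from their counts. In young cells the log2 fold change over fresh cells was 3.34 ± 0.09 for Apoe and 2.87 ± 0.10 for Fgl2. Sned1 was at 0.74 ± 0.19 and Htra3 at 2.28 ± 0.15. In aged cells the values were 3.44 ± 0.09, 2.12 ± 0.11, 2.11 ± 0.24 and 2.83 ± 0.16 for Apoe, Fgl2, Sned1 and Htra3. All 4 genes met the call for higher at both cell ages. Of all genes, 27.1% were called higher and 29.9% lower in young cells. In aged cells the shares were 29.9% and 32.5%. Fibroblast markers moved too, with 9 of 12 higher and 2 lower in young cells, and 7 and 2 in aged cells. Of 11 myofibroblast genes 10 rose and 1 fell at either age. Of 18 proliferation genes, all fell in young cells, while aged cells had 6 higher and 7 lower calls. The part of these in the rise of the 4 genes was not tested.

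The log2 fold change for culture in aged cells minus that in young cells is likewise a description. It was -0.75 ± 0.14 for Fgl2 and 1.37 ± 0.31 for Sned1, which met the call. Htra3 (0.55 ± 0.23) and Apoe (0.10 ± 0.11) did not meet it. Of all genes, 10.5% had a positive and 10.1% a negative difference that met the call. Sned1 in cultured cells overlapped the fresh range at both cell ages. In young cells Sned1 averaged 139.9 CPM on SoftY, beside 43.5 on StiffY, 39.9 on SoftA, 33.7 on StiffA and 32.3 in fresh cells.

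Of 11 macrophage markers measured over fresh and cultured cells, 9 fell in culture in young and 11 in aged cells, and none rose. The 16 markers summed to 27.1 to 74.7 CPM over the cultured libraries. Aif1 had 0 counts in 22 and Fcgr1 in 21 of 23 cultured libraries. Between the matrices, averaged over the gels, 0 of 5 measured markers rose or fell in either cell age. Lyz2 was at -0.03 ± 0.20 in young and -0.15 ± 0.19 in aged cells. In young cells on the soft gel 1 of 5 rose on aged matrix. This was Csf1r, a receptor of macrophages, named after its values were seen, at 0.495 CPM on SoftY and 3.82 on SoftA (edgeR adjusted p = 0.0467). Both levels are below the minimum of 10 CPM for named list genes, so its call rests on few counts. Lyz2, a lysozyme of myeloid cells, fell by 0.93 ± 0.20 (edgeR adjusted p = 0.00508) in young cells for stiff over soft gel. That comparison, averaged over both matrices, also had lower values of the 4 genes, and the part of Lyz2 in them was not tested. In bulk RNA fewer cells of a type and less RNA per cell cannot be told apart.

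In the gene lists below the matrices were compared as the mean of both gels unless a gel is named. Among 21 measured genes of lipoprotein transport and cholesterol efflux, which hold partners of Apoe, 1 rose and 3 fell on aged matrix in aged cells. Lpl, a lipase that acts on lipoproteins, fell by 0.80 ± 0.09 on the log2 scale (edgeR adjusted p = 1.69e-06) and Clu, another secreted apolipoprotein, by 0.35 ± 0.11 (adjusted p = 0.0464). In young cells 1 rose and 1 fell, the latter again Lpl (-0.63 ± 0.10, adjusted p = 2.90e-04). The median log2 fold change of the list was -0.03 in aged and -0.02 in young cells, beside -0.0059 and -0.00087 over all genes.

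Of 10 measured proteins with the fibrinogen-like domain of Fgl2, averaged over both gels, 1 rose and 2 fell on aged matrix in aged cells. Tnxb, a tenascin of connective tissue, fell by 0.92 ± 0.12 (edgeR adjusted p = 1.07e-05) and Angptl2, a secreted angiopoietin-like protein, by 0.39 ± 0.08 (adjusted p = 0.00409). Mfap4, an elastic fibre protein, rose by 0.36 ± 0.11 (adjusted p = 0.0393). In young cells, averaged over both gels, Tnxb alone met a call, at -0.62 ± 0.13 (adjusted p = 0.00646). On the soft gel 2 of 10 fell and 0 rose in young cells. These were Tnxb at -1.37 ± 0.18 (adjusted p = 3.06e-05) and Angpt2 at -0.79 ± 0.21 (adjusted p = 0.0377). On the stiff gel 0 fell and 1 rose, Angptl4 at 0.48 ± 0.10 (adjusted p = 0.0246). Of 14 genes of coagulation and fibrinolysis, averaged over both gels, 2 rose and 3 fell in aged cells. Young cells had 2 higher and 0 lower calls. Thbd, thrombomodulin, rose in both, by 0.53 ± 0.11 (adjusted p = 0.00345) and 0.76 ± 0.12 (adjusted p = 5.59e-04).

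Of 42 matrix glycoproteins, the class of Sned1, 7 rose and 12 fell on aged matrix in aged cells, averaged over both gels. Young cells had 3 higher and 6 lower calls. Fbln1, a fibulin, fell by 0.73 ± 0.06 in aged (edgeR adjusted p = 4.51e-09) and 0.29 ± 0.06 in young cells (adjusted p = 0.00587). Sparcl1, a relative of Sparc, fell by 1.24 ± 0.10 (adjusted p = 9.46e-09) and 0.59 ± 0.11 (adjusted p = 0.00227). Fbln2, another fibulin, rose by 0.61 ± 0.05 (adjusted p = 9.46e-09) and 0.53 ± 0.05 (adjusted p = 1.05e-06). The gels differed in young cells, where 3 of 42 rose and 8 fell on the soft gel. Fbln1 was at -0.93 ± 0.09 there (adjusted p = 1.55e-07) and Sparcl1 at -1.60 ± 0.16 (adjusted p = 2.91e-07). On the stiff gel 4 of 42 rose and 0 fell in young cells, so neither Fbln1 nor Sparcl1 met the call for lower. Of 9 integrins of the fibronectin and RGD-binding group, which can bind such proteins, 1 fell in either cell age, averaged over both gels. This was Itga8, at -0.59 ± 0.12 in aged (adjusted p = 0.00231) and -0.62 ± 0.11 in young cells (adjusted p = 8.39e-04).

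Of 11 HtrA family members and secreted serine proteases, averaged over both gels, 1 rose and 3 fell on aged matrix in aged cells. Young cells had 1 higher and 0 lower calls. Prss23 rose by 0.68 ± 0.07 (edgeR adjusted p = 1.48e-07) and 0.62 ± 0.07 (adjusted p = 9.66e-06). C1s1, a complement protease, fell in aged cells by 0.63 ± 0.09 (adjusted p = 2.61e-05). Htra1, another secreted HtrA protease, was at -0.43 ± 0.14 in aged (adjusted p = 0.0695) and -0.13 ± 0.15 in young cells (adjusted p = 0.787). Of 24 TGF-beta family ligands, receptors and transducers, 3 rose and 4 fell in aged cells, with 2 higher and 0 lower calls in young cells. Inhbb, an activin subunit, fell in aged cells by 0.97 ± 0.16 (adjusted p = 2.48e-04), and Tgfb2 rose in both, by 0.31 ± 0.08 (adjusted p = 0.016) and 0.38 ± 0.09 (adjusted p = 0.0163).

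Of 10 myofibroblast genes, the contractile and matrix genes of activated fibroblasts, 6 rose and 0 fell on aged matrix in aged cells. Young cells had 2 higher and 0 lower calls, both counts averaged over the gels. Lox, which cross-links collagen, rose by 0.94 ± 0.09 (edgeR adjusted p = 9.98e-08) and 0.78 ± 0.10 (adjusted p = 2.30e-05). Acta2, smooth muscle actin, rose in aged cells by 0.80 ± 0.09 (adjusted p = 6.86e-07). Endothelial markers also moved in aged cells, where 4 of 8 rose and 0 fell. Their summed level was 106.9 to 143.7 CPM on young and 142.6 to 204.6 CPM on aged matrix, and its part in these results was not tested.

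Fibroblast markers did not move as 1 block. On aged matrix, averaged over both gels, 4 of 12 rose and 4 fell in aged cells. Among them were Col1a1, a fibrillar collagen chain, at 0.34 ± 0.05 (edgeR adjusted p = 3.53e-05) and Pdgfra, a growth factor receptor, at -0.64 ± 0.06 (adjusted p = 9.98e-08). For stiff over soft gel in young cells, averaged over both matrices, 6 of 12 fell and 0 rose. The 4 genes had lower values in that comparison too. Dpt, a small matrix protein, was at -0.76 ± 0.07 (adjusted p = 5.68e-08) and Gsn, an actin-severing protein, at -0.65 ± 0.06 (adjusted p = 8.12e-08).

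The genes most like each member were ranked by Pearson r of log2 CPM over the 23 cultured libraries among 8679 genes, as a description, since libraries of a group share a substrate. Among the 4 genes most like Apoe were Serping1, an inhibitor of complement proteases (r = 0.956), Lpl (0.952) and Mmp2, a matrix metalloprotease (0.947). Among the 4 most like Fgl2 were Serpina3f (0.943), Peg3 and Dpt (both 0.931). Serpina3f has near-identical copies between which reads may be split, so its value is uncertain. Apoe itself was most like Sned1 (0.905), before Fut11 (0.899), Atp1b2 (0.898) and Tbc1d2b (0.895). Fbln1 was most like Htra3 (0.921), before Igfbp4 (0.909), Sparcl1 (0.899) and Cnmd (0.881). Sparcl1 was at -1.60 ± 0.16 and 0.42 ± 0.16 on aged over young matrix in young cells on the soft and the stiff gel, and at -0.81 ± 0.14 and -1.67 ± 0.15 in aged cells. Lpl was at -1.09 ± 0.14, -0.17 ± 0.13, -0.55 ± 0.13 and -1.05 ± 0.13 in the same order.

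Between the members themselves r ran from 0.541 for Fgl2 with Htra3 to 0.905 for Apoe with Sned1. Within groups, after group means were removed, the same pairs had r of 0.579 and -0.237. The likeness of Apoe and Sned1 thus lay in the group means, where r was 0.979 over 8 groups.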

How the data were processed

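The 29 libraries were prepared with a NEBNext low-input kit, per the labels' protocols. Per the submitters' processing notes, alignment used STAR 2.7.8a and mm39. The authors deposited raw counts per gene; the file's name points to HTSeq, and its version, the annotation and strand use were not given in the sources used here. Each library held 1192668 to 3275089 counts, so 10 CPM rested on 12 to 33 counts.

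Tests used edgeR 4.0.16 under R 4.3.3 (TMM, filterByExpr, quasi-likelihood F test, Benjamini-Hochberg over all genes of a fit, calls at an adjusted p under 0.05). Fresh libraries were fitted alone, the 23 cultured libraries in 8 groups, and cultured against fresh over all 29. Means over substrates weigh groups equally. SE was the size of the log2 fold change divided by the root of F. The prior count of log2 CPM was 2. DESeq2 1.42.0, other size factors, no filter, a replicate block, fits within 1 cell age and leaving out each library were alternatives. The fits were tested on simulated data.

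The 4 genes and the gene lists were chosen with earlier results of these data known. Named list genes are up to 2 called genes in each direction with the smallest p and a mean of at least 10 CPM. Stiffness, cell age in culture and culture against fresh cells were planned as tests. They are given as descriptions for the 4 genes, since the cultured libraries chose them. A few genes that the naming rules select are left unreported here.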

Additional observations from a re-analysis of the deposited data

Results flagged for a closer look

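The stiffness values of aged and young cells differed past the call for Apoe (0.60 on the log2 scale) and Fgl2 (0.73), in libraries that also chose the genes, so this is no independent test. The change from fresh to cultured cells differed between the cell ages past the call for Fgl2 (-0.75) and Sned1 (1.37). Its cultured libraries chose the genes too, so this is likewise no independent test.

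For the following values the groups went opposite ways with no overlap of libraries, and the difference was not tested. The share of all genes that did so was not computed, so nothing is read from the lack of overlap. Htra3 on aged over young matrix was 0.71 in young cells on the stiff gel, -0.83 in young cells on the soft gel and -1.41 in aged cells on the stiff gel. Apoe in aged over young cells was 0.86 on StiffY, -0.85 on SoftY, -0.44 on SoftA and -0.95 on StiffA. Sned1 was 0.86 on StiffY and -0.67 on SoftY. Htra3 was 1.42 on StiffY, -0.60 on SoftY and -0.70 on StiffA. Groups of 2 or 3 libraries are too small to look for a library far from the others.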

How the results depend on the processing

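For fresh age, cell age in culture, culture and stiffness, no called value of the 4 genes changed direction or lost its call under the alternatives run. Apart from fresh age, these refits used libraries that chose the genes, so nothing is read from the calls that stayed. Matrix values were compared in size and direction only, with no call read. 2 uncalled values of Htra3 near 0 crossed it without 1 library, to 0.02 for matrix in aged cells on the soft gel and to 0.0047 for matrix in young cells. With no filter on low counts Sned1 met the call for cell age in culture (-0.30), and 98 genes were called for matrix in young cells on the stiff gel (45 in the reported fit) and 705 for matrix in aged cells on the soft gel (264). With DESeq2 Htra3 met the call for the difference in stiffness response (0.60), and 68 genes were called for matrix in young cells on the stiff gel. In a fit of young libraries only, 267 genes were called for stiffness (457), 158 for matrix (320), 187 for matrix on the soft gel (367) and 7 on the stiff gel. In a fit of aged libraries only, 463 were called for matrix on the soft gel.

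Leaving out 1 library at a time gave -0.36 to -0.26 for Fgl2 and stiffness in aged cells, 0.52 to 0.66 for Htra3 and the difference in stiffness response, which met the call without any 1 of 4 libraries, and -0.38 to -0.21 for Sned1 and cell age. Counts of called genes ran from 304 to 555 for stiffness in young cells, 179 to 346 for matrix in young cells, 140 to 468 on the soft gel and 18 to 37 on the stiff gel. The lowest of the first 3 were without the first young library on SoftY. For matrix in aged cells they ran from 596 to 1088, with 103 to 314 on the soft and 171 to 293 on the stiff gel. The cause of these shifts was not tested.

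With the replicate number as a block, 3571 genes were called in fresh cells (3750 without it) and Apoe was at -0.47 there. No call of the 4 genes in those comparisons changed under this block, or under one on the number in the library names, which was added after the data were seen. The deviations of same-numbered libraries had r over 0.1 in 1 of 3 fresh pairs. In aged cultured cells 11 of 18 pairs did (median 0.115, other pairs -0.11), and in young cultured cells 10 of 15 by title number (0.185, others -0.118) and 13 of 15 by library-name number (0.218, others -0.151). Not every pair passed, so the numbers were not taken as pairs. P-values given for cultured cells thus treat the libraries as independent, though same-numbered ones deviated partly together there. At these depths Htra3 in fresh cells rested on few counts, which limits its precision. The same holds for Sned1 in aged cells, with 21 to 32 counts in fresh libraries and 24 to 56 on StiffA.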
